A study of Rattus norvegicus with 8 samples.

Results

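The oxidases that make reactive oxygen species in the colon and the enzymes that remove them were followed in rats fed cocoa, cocoa fiber or inulin. The members were 10 genes chosen by name: the oxidases *Nox1* and *Duox2*, *Noxo1*, which organizes the NOX1 complex, and the antioxidant enzymes *Sod1*, *Sod2*, *Cat*, *Gpx1*, *Gpx2*, *Txnrd1* and *Hmox1*. Probes were assigned to genes through the accession that the array files give, and 9 of the 10 genes had a probe, out of 19899 genes tested on the whole array. No probe was matched to *Noxo1*, which was not analysed here. Each of the 9 gave a signal well above background in 16 of 16 rats.

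The arrays held colon RNA of 16 female Wistar rats aged 6 weeks, 4 from each of 4 diets, whereas 10 rats per diet had been fed for 3 weeks. REF was the standard AIN-93M diet, C10 contained 10 % cocoa and thus cocoa polyphenols with soluble and insoluble cocoa fiber, CF contained the same cocoa fiber with very little polyphenol, and I contained the same amount of soluble fiber as inulin. The paper also names theobromine as a compound of cocoa, so C10 and CF need not differ in polyphenols alone. It reports a lower final body weight in the C10 group than in the other groups, at a similar chow intake. The RNA came from a full piece of the middle colon, so that epithelium, muscle and immune cells were measured together, and fewer cells of a type cannot be told apart from less RNA per cell. Each of the 8 arrays compared 1 rat in Cy5 with another in Cy3. Arrays 1 to 4 held all C10 rats and arrays 5 to 8 all I rats, whereas REF and CF were split over them. Within arrays, C10 and I were therefore linked only through the other diets, and so were CF and REF, which shared no array.

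NADPH oxidases pass electrons from NADPH to oxygen. NOX1 makes superoxide at the colon epithelium and needs an organizer, NOXO1, and an activator, NOXA1, whereas DUOX2 releases hydrogen peroxide towards the lumen with the help of its maturation factor DUOXA2. Superoxide dismutases turn superoxide into hydrogen peroxide, which catalase, the selenium-dependent glutathione peroxidases and the thioredoxin-linked peroxiredoxins reduce to water. Thioredoxin reductase 1 keeps thioredoxin reduced, and heme oxygenase 1 degrades heme. Many of these enzymes are known targets of the transcription factor NRF2, encoded by *Nfe2l2*, which binds the antioxidant response element.

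The core of that element, searched as TGACNNNGC on both strands, was present in the promoter window of 3 of the 9 members that have an entry in the RefSeq table (build GRCr8, 250 bases before to 50 bases after the start of the gene), namely *Sod2*, *Gpx2* and 1 of the 2 entries of *Txnrd1*. It was present in 12.1 % of all 33469 windows of the table. The table has no entry matched to *Hmox1*. *Nox1* is shown because, of the members, its diet means lay farthest apart, *Gpx2* because it is the intestinal glutathione peroxidase with a match, and *Me1*, a listed NRF2 target that is no member, because it changed with cocoa and has a match. All 3 lie on the minus strand, at chrX:101595471-101595770, chr6:101229984-101230283 and chr8:96540195-96540494, and the capitals mark the match.
Nox1: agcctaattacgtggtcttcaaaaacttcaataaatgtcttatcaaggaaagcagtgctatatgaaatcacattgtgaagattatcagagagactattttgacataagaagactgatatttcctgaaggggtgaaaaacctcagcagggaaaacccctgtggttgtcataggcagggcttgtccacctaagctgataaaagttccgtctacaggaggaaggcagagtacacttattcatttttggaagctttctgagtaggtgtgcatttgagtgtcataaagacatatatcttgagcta
Gpx2: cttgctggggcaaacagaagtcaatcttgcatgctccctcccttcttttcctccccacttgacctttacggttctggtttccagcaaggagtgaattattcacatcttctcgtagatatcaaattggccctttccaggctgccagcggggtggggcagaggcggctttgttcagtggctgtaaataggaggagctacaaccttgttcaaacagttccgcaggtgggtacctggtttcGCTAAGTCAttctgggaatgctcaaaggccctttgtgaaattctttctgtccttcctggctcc
Me1: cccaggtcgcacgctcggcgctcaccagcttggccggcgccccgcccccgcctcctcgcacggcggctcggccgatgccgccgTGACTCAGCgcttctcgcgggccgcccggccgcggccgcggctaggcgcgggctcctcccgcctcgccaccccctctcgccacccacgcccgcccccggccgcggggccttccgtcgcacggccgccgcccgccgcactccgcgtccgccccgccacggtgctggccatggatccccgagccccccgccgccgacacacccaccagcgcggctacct
The match of *Gpx2* is read on the opposite strand as TGACTTAGC, and that of *Me1* on the same strand as TGACTCAGC. The window of *Nox1* holds no match. Nor do those of *Noxa1* and *Aox1*, which are no members and passed in a comparison with C10. The table has no entry matched to *Txnip* or *Gpx8*, which passed as well. A match of letters describes the sequence and does not show binding.

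*Nox1* had the lowest level in the rats fed cocoa. A level is the normalized log2 signal of the gene, corrected for dye. The 4 C10 rats had *Nox1* levels of 7.23, 6.67, 6.58 and 7.03, and the 4 REF rats had 8.17, 8.19, 7.51 and 6.99. The CF rats had 8.10, 7.45, 7.74 and 6.96, and the I rats 8.14, 7.76, 7.52 and 8.29. All 4 C10 rats lay below all 4 I rats, which were on the other set of arrays. The groups of C10 and REF overlapped through REF rat 4, and those of C10 and CF through CF rat 4. The diet means ran from 7.93 ± 0.35 in I, through 7.72 ± 0.58 in REF and 7.56 ± 0.48 in CF, to 6.88 ± 0.31 in C10 (SD, n = 4). The neighbours in this order other than C10 did not differ beyond their spread, with a log2 difference in the linear model of 0.39 ± 0.27 (SE) for I against REF and -0.13 ± 0.29 for CF against REF.

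In the linear model, which weighs differences within an array more than those between arrays, *Nox1* was lower in C10 than in REF by a log2 difference of -0.99 ± 0.27 (SE), a fold of 1.98, but did not pass at an adjusted p of 0.0755 (limma). Against I the log2 difference was -1.37 ± 0.29 with an adjusted p of 0.0513, and against CF it was -0.85 ± 0.27 with an adjusted p of 0.163. The exact permutation test (two-sided) of 4 rats against 4 gave p = 0.0857 for C10 against REF, 0.0286 against I and 0.0857 against CF, and 0.0286 is the smallest p that it can give. Here and below, this test shuffled the rats freely, without regard to which rats shared an array. Between C10 and I, it cannot tell diet apart from the set of arrays. On the arrays that held both diets, C10 rat 1 was below REF rat 1 by a log2 difference of -0.94 and C10 rat 2 below REF rat 2 by -1.52. The REF rats of arrays 1 to 4, where all C10 rats lay, had a mean level of 8.18, and those of arrays 5 to 8 a mean of 7.25. Within arrays 1 to 4 the difference was -1.30, and with the set of arrays as a term it was -1.16 with an adjusted p of 0.0436. *Nox1* is a gene that the study itself named from these arrays, so its level here is not independent evidence.

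The size of the *Nox1* difference depended on the treatment of background. Its lowest level, 6.58, was close to the lowest signal well above background in a rat, which was 5.82 to 6.22 on the same scale. Without the offset added in background correction, the log2 difference from REF was -1.59 (adjusted p = 0.0743) and that from I was -2.11 (0.0493). With the scanner's processed signals they were -1.88 (0.0537) and -2.48 (0.0319). The sign stayed negative under all 12 alternatives and with each rat left out. Without REF rat 4 the difference from REF was -1.23, with an adjusted p of 0.0335, and without REF rat 2 it was -0.74, with an adjusted p of 0.356.

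**Figure D1:**
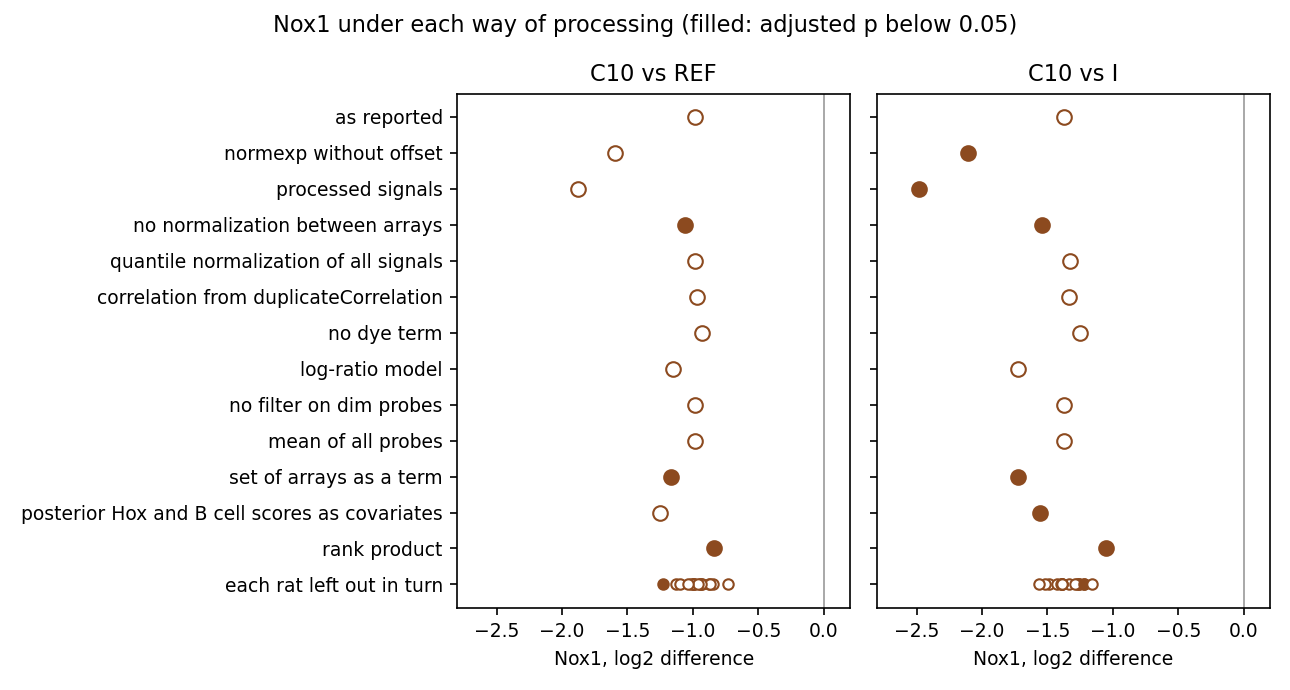
Log2 difference of Nox1 between C10 and REF (left) and between C10 and I (right) under each way of processing; a filled point has an adjusted p below 0.05, and the last line holds 16 points, each without 1 rat. Every point lies below 0, from -1.88 to -0.74 against REF and from -2.48 to -1.05 against I.

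Mast cell markers fell in the cocoa-fed colon, where *Nox1* was lowest. The marker counts are to be read beside all genes in C10 against REF, of which 1.49 % passed and 18.6 % had an unadjusted p below 0.05. Of the 7 mast cell markers, 6 fell in C10 against REF (median log2 difference -1.08), and their mean level was 7.71 to 8.50 in C10 against 9.27 to 9.51 in REF. The 7 smooth muscle markers had a median difference of -0.85 and 0 passed (5 at an unadjusted p below 0.05), with a mean level of 12.4 in C10 rat 1, 14.2 to 14.6 in the other C10 rats and 14.1 to 14.8 in REF. The 4 adipocyte markers tested had a median of -1.09 (3 at an unadjusted p below 0.05), the 8 macrophage markers one of -0.45, with all 8 lower (5), and the 4 plasma cell markers tested one of -0.59 (2), and 0 of these passed. Their mean levels in C10 and REF ran from 8.16 to 9.22 and 8.81 to 10.1 for adipocytes, 9.15 to 9.90 and 9.77 to 10.2 for macrophages, and 8.08 to 10.2 and 9.31 to 10.2 for plasma cells. Of the 6 posterior Hox genes, which mark the end of the gut nearest the anus, 4 were tested. They had a median difference of 0.99 and 0 passed, and their mean level was lowest in REF rat 4, at 6.58, the REF rat with the lowest *Nox1*. The 9 epithelial markers had a median difference of 0.09 (1 at an unadjusted p below 0.05) and the 7 surface colonocyte markers one of -0.01 (1). The 6 goblet cell markers tested had one of -0.36, with all 6 lower (3). The 5 crypt base and stem cell markers tested had one of -0.14, with all 5 lower (2). In these epithelial lists 0 passed. With the posterior Hox and B cell means as covariates, the log2 difference of *Nox1* from REF was -1.25 (adjusted p = 0.0891) and that from I was -1.56 (0.0323). The B cell mean was 7.49 to 9.72 in the rats on arrays 1, 3, 5 and 7. On arrays 2, 4, 6 and 8 it was 6.33 to 6.81, so this covariate cannot be told apart from a difference between those arrays. The part of these cells in the *Nox1* difference was not tested.

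*Noxa1*, the activator subunit of the NOX1 complex, fell in C10 against REF, by a log2 difference of -0.87 ± 0.19 (SE; adjusted p = 0.0397). Its levels were 12.20, 11.67, 12.91 and 12.16 in C10 and 13.13, 13.02, 12.58 and 13.03 in REF, so that 3 of 4 C10 rats lay below every REF rat and C10 rat 3 overlapped them. The call was close to the threshold and held under 4 of the 12 alternatives and with 4 of the 16 rats left out: the adjusted p was 0.0522 with the array correlation estimated by duplicateCorrelation, 0.0545 without the offset and 0.186 in the log-ratio model. With the Hox and B cell means as covariates the difference was -0.69, with an adjusted p of 0.164. Of the 12 tested genes of the oxidase complexes, *Noxa1* was the only one that passed in C10 against REF. When CF and I were set against REF, 0 of the 12 passed (limma), and 0 had an unadjusted p below 0.05.

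*Duox2*, which was listed beside *Nox1* as the other epithelial oxidase, had levels of 13.69, 13.71, 12.96 and 13.15 in C10 and 13.30, 13.04, 12.95 and 12.89 in REF. C10 rats 1 and 2 were above every REF rat, and the other two lay among them. The log2 difference was 0.40 ± 0.19 with an adjusted p of 0.288, in the opposite direction to that of *Nox1*. In CF against REF it was 0.38 ± 0.21 (adjusted p = 0.762), carried mainly by CF rat 1 at 13.66, the other CF rats being between 12.87 and 13.17. Its maturation factor *Duoxa2*, named after its values were seen, had log2 differences from REF of -0.18 in C10, 0.01 in CF and 0.01 in I in the linear model, and none passed. By plain means REF was highest, followed by C10, CF and I, with a range of 0.19, so a fall limited to C10 was not shown. Within arrays 1 to 4 and 5 to 8, the plain mean of CF was below that of REF by -0.24 and -0.13.

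Of the members, the dismutases varied least. *Sod1*, the cytosolic copper and zinc enzyme, lay between 14.18 and 14.62 in all rats, and *Sod2*, the mitochondrial manganese enzyme, between 9.73 and 10.03. The SD within a diet was 0.11 for *Sod1* and 0.08 for *Sod2*, against 0.44 for *Nox1*. The log2 difference of *Sod1* from REF was -0.12 in C10, -0.16 in CF and -0.18 in I, and the last had an unadjusted p of 0.0355 and an adjusted p of 0.773. That of *Sod2* was 0.06, -0.02 and -0.05. The 95 % interval for *Sod2* in C10 against REF was -0.07 to 0.19, so that a change of 2-fold lay outside it in either direction. The other 2 genes of the dismutase list did not pass: the copper chaperone *Ccs* had a difference of -0.20 in C10, and the extracellular *Sod3* one of 0.37 in CF.

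Of the glutathione peroxidases and catalase among the members, only *Gpx1* had an unadjusted p below 0.05 in C10 against REF. *Gpx1*, the cytosolic glutathione peroxidase found in all cells, had levels of 13.54, 13.34, 13.69 and 13.51 in C10 and 13.76, 13.67, 14.19 and 13.87 in REF. Of the 4 C10 rats, 3 lay below every REF rat, and C10 rat 3 lay just above REF rat 2. The log2 difference was -0.33 ± 0.11 with an unadjusted p of 0.00905 and an adjusted p of 0.133, and the exact permutation test gave p = 0.0571. It passed in 1 of the 12 alternatives, with the Hox and B cell means as covariates (-0.40, adjusted p = 0.0465), of which the B cell mean split by array as given above. The REF rats of arrays 1 to 4 had a mean *Gpx1* level of 13.71, and those of arrays 5 to 8 one of 14.03. Within arrays 1 to 4 the difference was -0.19. With the set of arrays as a term it was -0.26, the smallest among the 12 alternatives. *Gpx2*, the epithelial form of the intestine, ranged from 14.29 to 15.42 within REF alone. Its log2 difference from REF was -0.15 in C10, -0.03 in CF and -0.14 in I, smaller than its SD within a diet of 0.35. For the plain difference of the means of C10 and REF, both probes of *Gpx2* gave -0.09, and the 2 probes correlated over the 16 rats with r = 0.94.

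Catalase, encoded by *Cat*, had differences of -0.07, -0.01 and 0.08 in C10, CF and I against REF, with 95 % intervals from -0.36 to 0.22 for C10 and -0.21 to 0.38 for I. Its level lay between 7.46 and 8.33 in all rats. In the list of catalase and the glutathione peroxidases, all 7 genes had a negative difference in C10 against REF, with a median of -0.33 against 0.01 over all genes. Of the 7, 4 had an unadjusted p below 0.05 (limma), beside 18.6 % of all genes. All 7 were also lower in C10 than in CF (median -0.21) and than in I (median -0.19). Against REF, only *Gpx8*, a peroxidase of the endoplasmic reticulum, passed in C10 (-0.46 ± 0.10, adjusted p = 0.0410). Its levels were 9.61, 9.90, 9.62 and 10.20 in C10 and 10.41, 10.20, 10.20 and 10.23 in REF, so that C10 rat 4 overlapped REF. The call held under 5 of the 12 alternatives and with 3 of the 16 rats left out. It was lost with duplicateCorrelation (adjusted p = 0.05005), without the offset (0.0639), with the set of arrays as a term (0.0651), with no normalization between arrays (0.0655), without dye (0.119), in the log-ratio model (0.278) and by rank product (0.294). The *Gpx8* difference was smallest without C10 rat 1, at -0.33 with an adjusted p of 0.126 (limma). In CF and I against REF, the medians of this list were -0.01 and -0.11 and 0 genes passed.

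*Txnrd1* and *Hmox1*, both known NRF2 targets, had no difference that passed. The levels of *Txnrd1* were 9.89, 9.95, 9.61 and 9.14 in C10 and 9.59, 9.44, 9.16 and 9.61 in REF. C10 rats 1, 2 and 3 were above every REF rat, rat 3 only just, and C10 rat 4 was below every REF rat. The log2 difference was 0.26 ± 0.16 (adjusted p = 0.425), and against I it was 0.36 ± 0.18 (0.422). The second probe of *Txnrd1* gave a smaller plain difference of the means of C10 and REF (0.12 against 0.20), and the 2 probes correlated over the 16 rats with r = 0.53.

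*Hmox1* was highest with inulin. The I rats had levels of 8.98, 8.88, 8.95 and 8.79, and the REF rats 8.62, 8.53, 8.76 and 8.16. All 4 I rats lay above all 4 REF rats, and the log2 difference was 0.43 ± 0.15, with an unadjusted p of 0.0112 and an adjusted p of 0.707. The exact permutation test gave p = 0.0286, the smallest it can give. On arrays 7 and 8, which held both diets, I rats were above REF rats by 0.18 and 0.63. The difference was 0.30 without REF rat 4, and between 0.38 and 0.52 under the 12 alternatives. In CF and C10 it was 0.31 ± 0.16 and 0.24 ± 0.15, with adjusted p of 0.716 and 0.40. The red cell markers were above REF in every diet as well, with median differences of 0.67 in C10, 0.86 in CF and 0.54 in I and 0 of 5 passing. At an unadjusted p below 0.05 (limma) there were 5 of the 5 in C10, beside 18.6 % of all genes. There were 4 in CF, beside 7.21 %, and 4 in I, beside 6.36 %. A link between these markers and *Hmox1* was not tested.

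**Figure D2:**
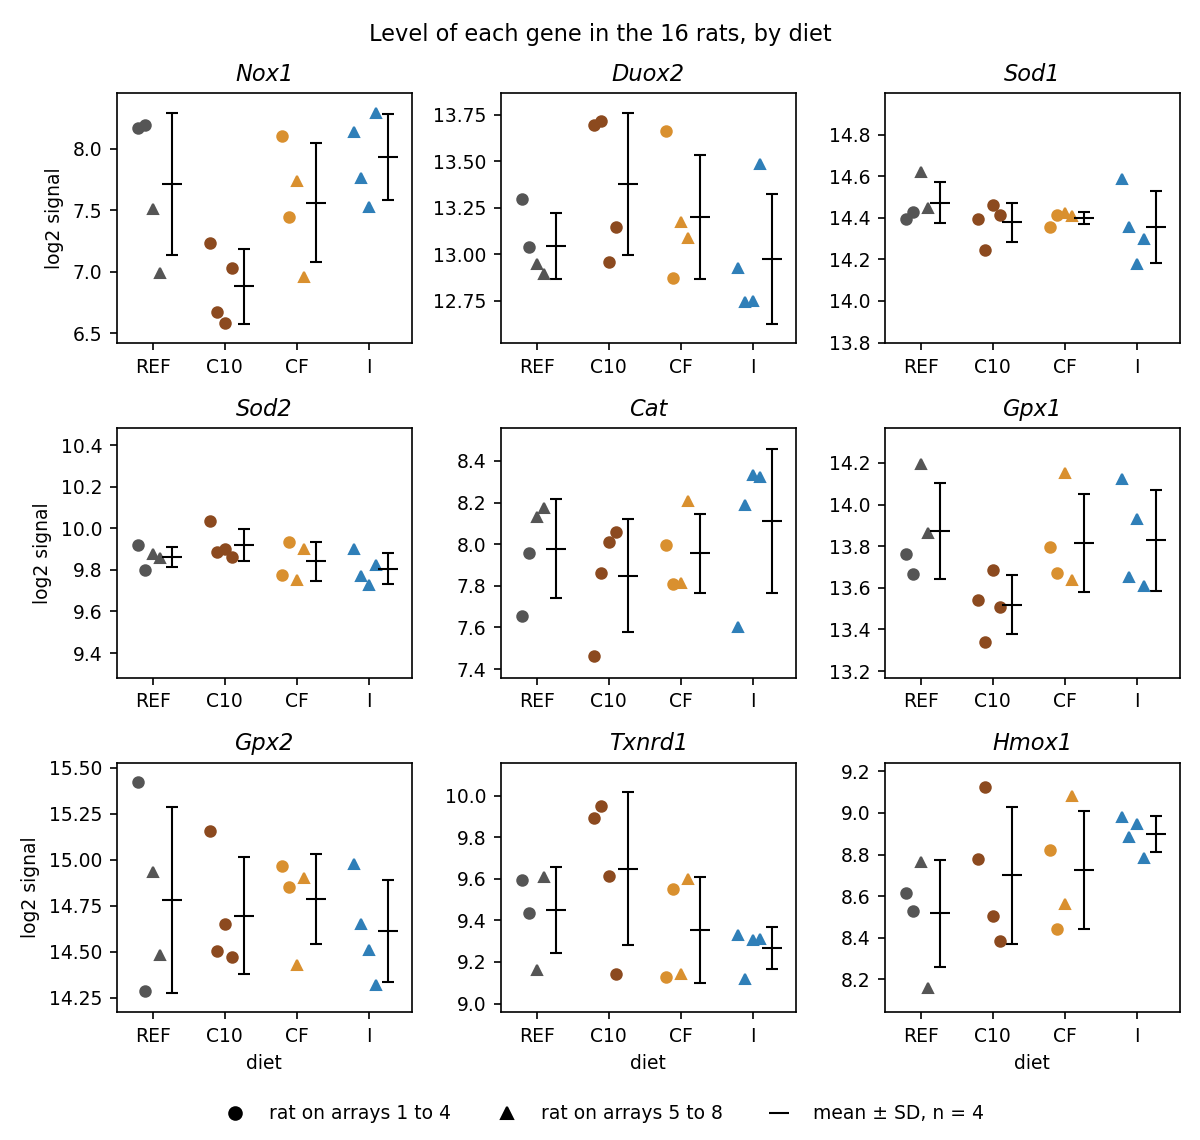
Normalized log2 signal of the 9 measured genes in each rat, by diet; circles are rats on arrays 1 to 4, triangles rats on arrays 5 to 8, and bars give mean ± SD (n = 4). Each panel has its own scale: Nox1 in C10 lies below all I rats, Hmox1 in I lies above all REF rats, and Sod1 and Sod2 stay within 0.44 and 0.31 log2 units.

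Over the 9 members, 0 passed in any of the 6 comparisons at an adjusted p below 0.05. This share is to be read against a background of all genes tested that was small as well. In C10 against REF, 297 of 19899 genes passed (1.49 %), in C10 against CF 135 (0.678 %) and in C10 against I 125 (0.628 %), whereas in CF against REF, I against REF and CF against I 0 passed (0 %). At an unadjusted p below 0.05, 2 of 9 members were different in C10 against REF (*Nox1* and *Gpx1*), beside 18.6 % of all genes, and 2 in I against REF (*Sod1* and *Hmox1*), beside 6.36 %. *Nox1* alone did so in C10 against CF, beside 14.3 % of all genes, and in C10 against I, beside 12.9 %. In CF against REF and CF against I the count was 0, beside 7.21 % and 3.29 %.

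Groups that did not overlap were 1 of 9 members in C10 against I (*Nox1*), beside 7.44 % of all genes, and 1 in I against REF (*Hmox1*), beside 2.8 %. They were 0 of 9 in C10 against REF (4.96 % of all genes), CF against REF (2.28 %), C10 against CF (4.76 %) and CF against I (1.64 %). The median log2 difference over the members was -0.07 for C10, -0.02 for CF and -0.05 for I when set against REF, and that over all genes was 0.01 in each. By rank product, the method that the study used, *Nox1* passed in C10 against REF and in C10 against I and the other 8 members did not pass. The comparisons with REF share the same 4 REF rats, and those with C10 the same 4 C10 rats.

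**Figure D3:**
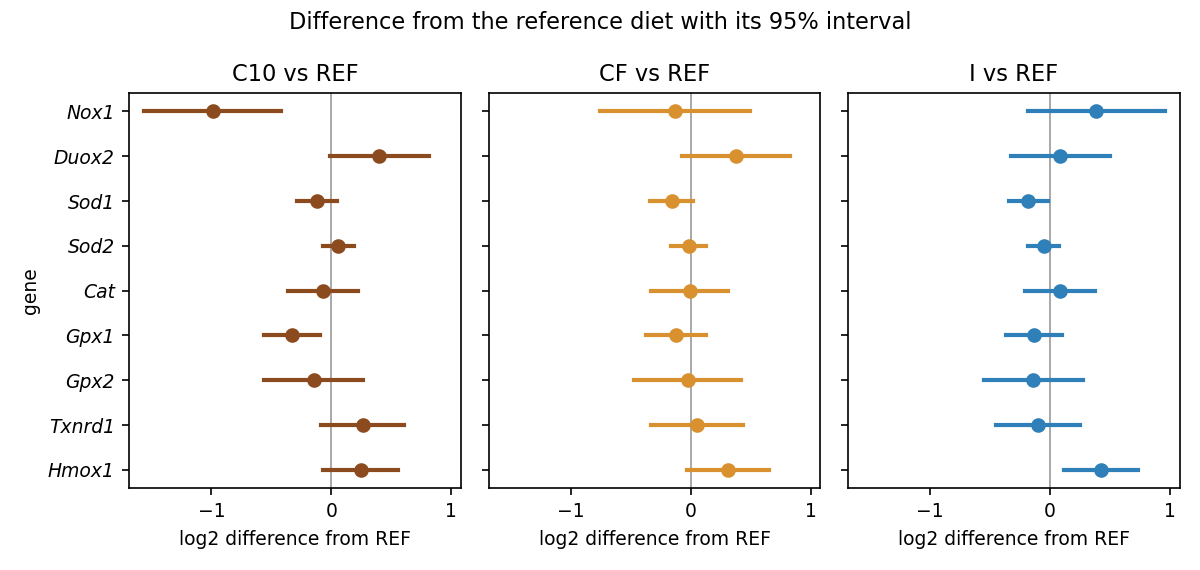
Log2 difference of each gene from REF in C10, CF and I (points) with its 95 % interval from the linear model (lines). The interval lies wholly below 0 for Nox1 and Gpx1 in C10 and Sod1 in I, and wholly above 0 for Hmox1 in I, before adjustment for the 19899 genes tested.

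Of the 36 pairs of members, 7 had a correlation over the 16 rats with an unadjusted p below 0.05, and 0 had an adjusted one below it (permutation test of Pearson's r, Benjamini-Hochberg over the 36). The strongest was that of *Sod2* and *Txnrd1* (Pearson's r = 0.69, p = 0.0027, adjusted p = 0.0986; Spearman's rho = 0.68, p = 0.0042, adjusted p = 0.151). It was 0.62 without the 2 rats farthest from the median *Sod2* level, 0.70 within arrays 1 to 4 and 0.53 within arrays 5 to 8. With the mean of each diet taken out, Pearson's r was 0.57. The permutation shuffled the 16 rats freely, without regard to diet or shared array.

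The other genes of these pathways were taken from 10 lists on oxidases, peroxide removal, glutathione, thioredoxin, heme, NRF2 and selenoproteins, which hold 71 genes that are not members, 63 of them tested. In C10 against REF, 1 rose and 3 fell, which is 6.35 % of the 63 beside 1.49 % of all genes. In C10 against CF 2 fell, in C10 against I 1 fell, and in CF against REF, I against REF and CF against I the count was 0 (limma). At an unadjusted p below 0.05 there were 17 of the 63 in C10 against REF (26.98 %, beside 18.6 % of all genes), 19 in C10 against CF (30.2 %, beside 14.3 %) and 14 in C10 against I (22.2 %, beside 12.9 %). There were 6 in CF against REF (9.52 %, beside 7.21 %), 0 in I against REF (beside 6.36 %) and 3 in CF against I (4.76 %, beside 3.29 %). These lists were compiled with earlier results of these arrays known.

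*Me1*, the cytosolic malic enzyme that supplies NADPH, had the smallest adjusted p of them. The study itself listed *Me1* as down-regulated in C10 from these arrays, so its level here is not independent evidence. Its levels were 10.63, 10.58, 11.09 and 10.45 in C10 and 11.85, 12.01, 11.83 and 12.13 in REF, with no overlap. It fell in C10 against REF by a log2 difference of -1.33 ± 0.17 (2.51-fold, adjusted p = 0.00309), in C10 against CF by -0.83 ± 0.17 (adjusted p = 0.0468) and in C10 against I by -1.02 ± 0.19 (adjusted p = 0.0304). The fall against REF passed with each of the 16 rats left out and under 10 of the 12 alternatives, the others being the model without dye (adjusted p = 0.0586) and the log-ratio model (0.186). The call against CF held under 3 of the 12 alternatives and with 4 of the 16 rats left out, and was lost, for example, with duplicateCorrelation (0.0551) and without CF rat 1 (0.215). That against I held under 8 of the 12 and with 9 of the 16 rats left out, and was lost without dye (0.231), in the log-ratio model (0.517), with the set of arrays as a term (0.0689) and with the Hox and B cell means as covariates (0.0527). Besides *Me1*, 15 genes of the 16 tested in the NRF2 list did not pass, among them, chosen after their values were seen, *Nqo1* at -0.30 and *Nfe2l2* itself at -0.34, both in C10 against REF. By plain means *Nfe2l2* was lowest in CF, 0.34 below REF. At an unadjusted p below 0.05, 2 of the 16 differed in C10 against REF, beside 18.6 % of all genes. In CF against REF 4 of the 16 did so, beside 7.21 %. In C10 against REF 10 of the list were higher and 6 lower, with a median of 0.04.

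*Txnip*, which binds and inhibits thioredoxin, rose in C10 against REF by 0.71 ± 0.16 (adjusted p = 0.0451), and its levels of 12.53, 12.96, 12.96 and 12.86 in C10 lay above the 12.19, 11.78, 12.44 and 12.12 of REF in all 4 rats. The call held under 4 of the 12 alternatives and with 5 of the 16 rats left out. The adjusted p was 0.0526 with duplicateCorrelation, 0.313 in the log-ratio model and 0.255 without REF rat 2. *Aox1*, an aldehyde oxidase, fell in C10 against CF by -0.59 ± 0.11 (adjusted p = 0.0269), with levels of 7.15, 7.44, 7.22 and 7.53 in C10 and 8.06, 7.95, 7.71 and 7.79 in CF that did not overlap. Under the 12 alternatives the *Aox1* difference ran from -0.54 by rank product to -0.95 with the scanner's processed signals, so its size depended on the processing. The call held under 9 of the 12 alternatives and with 12 of the 16 rats left out. It was lost without dye (adjusted p = 0.0654), in the log-ratio model (0.465), by rank product (0.159), and without CF rat 1 (0.165), C10 rat 3 (0.128), CF rat 2 (0.0759) or CF rat 3 (0.0617). Against REF its difference was -0.36, with an adjusted p of 0.101. It belongs to the 7 tested genes of other oxidant sources, with a median of -0.28 in C10 against REF. Of the 7, 0 passed there and 3 had an unadjusted p below 0.05, beside 1.49 % and 18.6 % of all genes.

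**Figure D4:**
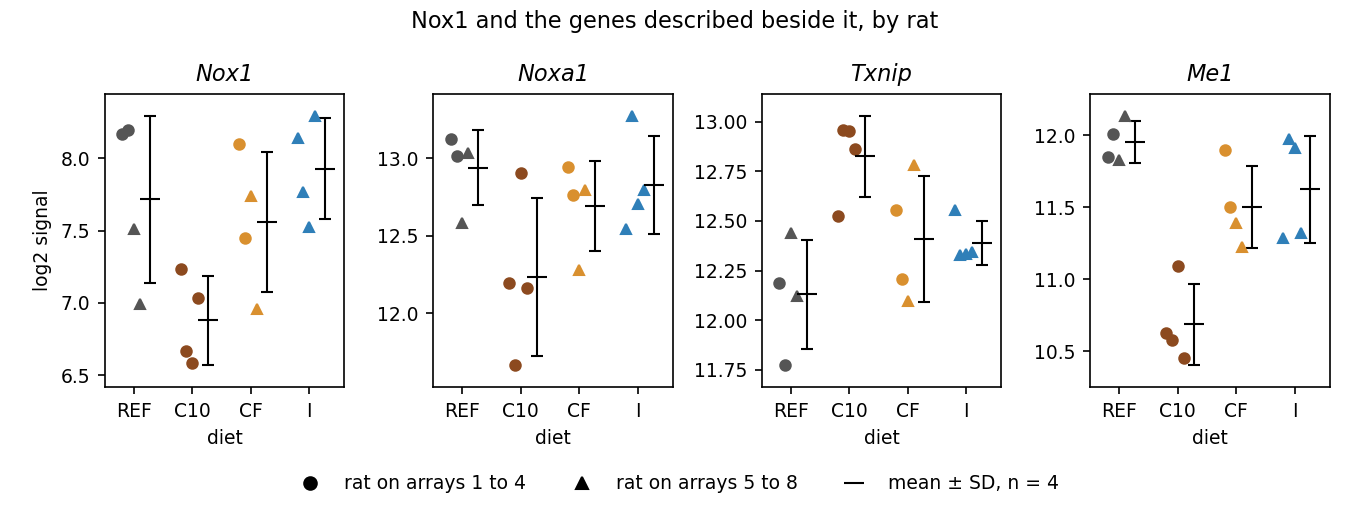
Normalized log2 signal of Nox1, its activator Noxa1, Txnip and Me1 in each rat, by diet; circles are rats on arrays 1 to 4, triangles rats on arrays 5 to 8, and bars give mean ± SD (n = 4). The C10 rats lie below all REF rats for Me1 and above them for Txnip, and overlap them in 1 rat for Noxa1.

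The remaining lists held no gene that passed in C10 against REF. In the peroxiredoxins, *Prdx6* had -0.87 (adjusted p = 0.122) and *Prdx5* 0.42 (0.175), with a list median of -0.07. In glutathione synthesis and recycling, *Gclc*, the catalytic subunit of the rate-limiting ligase, had 0.34 and glutathione synthetase, *Gss*, 0.33 (adjusted p = 0.0611), with a median of 0.07. The ferritin heavy chain *Fth1* had 0.24 in the list of heme breakdown and iron storage, with a median of 0.05. In selenoprotein synthesis, *Eefsec* had 0.19 in CF and *Selenop* -0.17 in C10, and the median in C10 was 0.01.

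**Figure D5:**
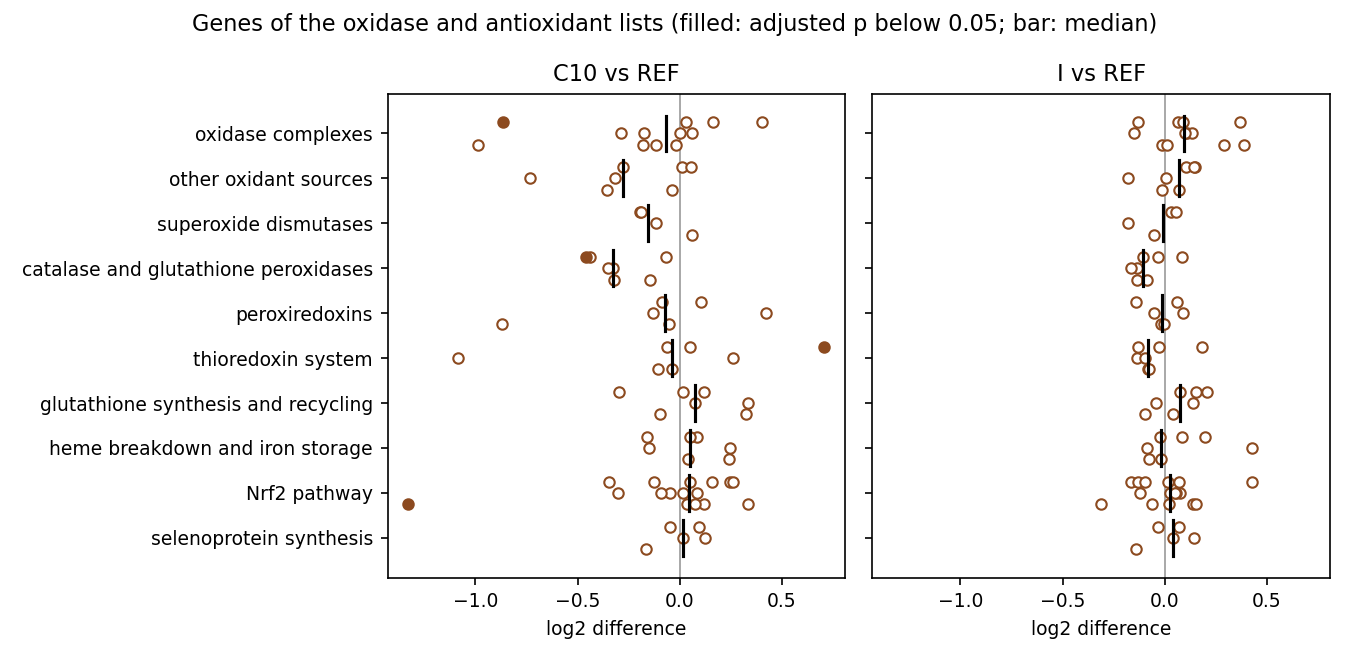
Log2 difference of every tested gene of the 10 lists in C10 against REF (left) and I against REF (right); each point is a gene, filled at an adjusted p below 0.05, and the bar is the median of the list. The 4 filled genes in C10 are Noxa1, Gpx8, Txnip and Me1, and no gene is filled in I.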

How the data were processed

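Per the labels, each array compared the colon RNA of 2 rats, 1 in each dye, and all 8 arrays lie on 1 slide. The authors deposited the scanner output of Feature Extraction 10.7.3.1, which holds raw median intensities per spot with the background around it, and processed intensities used for 1 alternative. A table of normalized values with 8 columns was left out, since its column names match no label.

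Here, background correction (normexp, offset 50), spatial and intensity loess (spans 0.4 and 0.3) and Aquantile were run with limma 3.58.1 (R 4.3.3, statmod 1.5.0). The methods name these steps, and the offset and spans were chosen here. Outlier spots were left out, probes well above background in at least 4 of 16 rats were kept, and each gene was read from its brightest probe. Between 68.6 and 83.9 % of spots were well above background in a rat, and 4 rats per diet limit the precision.

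A linear model with diet, dye and the array as correlated pair (0.477) gave each difference, with Benjamini-Hochberg adjustment over 19899 genes and a pass at an adjusted p below 0.05. Where a difference is near 0, its sign can depart from that of the plain means. On simulated data the changes put in were recovered, but the correlation was estimated too high and false calls exceeded the threshold, so duplicateCorrelation (0.421) was added after seeing the data. Alternatives were other background corrections, normalizations, models, filters, covariates, rank product and leaving out each rat.

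Members and lists were chosen with earlier results of these data known. All members are named, and of each list the genes that passed (at most 4) or the 2 with the largest difference from REF. *Duoxa2*, *Nqo1* and *Nfe2l2* were named after their values were seen.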

Additional observations from a re-analysis of the deposited data

Results flagged for a closer look

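In the 56 groups of 4 rats formed by the 14 genes described by rat and the 4 diets, 4 rats stood apart from the other 3 of their diet (Dixon's test at the 95 % level), and chance gives about 1 in 20 groups. For *Sod1*, CF rat 1 was the lowest of its diet at 14.35, with the next rat at 14.41. For *Txnrd1*, I rat 2 was the lowest at 9.12, with the next at 9.31. For *Gpx8*, REF rat 1 was the highest at 10.41, with the next at 10.23, and without it the adjusted p of *Gpx8* in C10 against REF was 0.133. For *Txnip*, I rat 1 was the highest at 12.55, with the next at 12.35.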

How the results depend on the processing

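Of 1512 values of the members under 12 alternatives and with each of the 16 rats left out, 78 changed sign, none of them where either value had an unadjusted p below 0.05, and 12 passed that had not, 11 of *Nox1* and 1 of *Gpx1*. The count of members passing in C10 against REF went from 0 to 1 with no normalization between arrays, the set of arrays as a term, the Hox and B cell covariates or rank product, and ranged from 0 to 1 with a rat left out. In C10 against I it went from 0 to 1 without the offset, with processed signals, with no normalization between arrays, the set of arrays, the covariates or rank product, and ranged from 0 to 1 with a rat left out (1 without REF rat 4 in both). The 4 pathway genes passing in C10 against REF became 1 without the offset, with duplicateCorrelation or at 2-fold, 2 with processed signals, no filter on dim probes, the set of arrays or the covariates, and 0 without dye or in the log-ratio model, and ranged from 1 to 8 with a rat left out. The 2 in C10 against CF became 0 without dye, in the log-ratio model or at 2-fold, 4 with the covariates, and 1 without the offset, with processed signals, no or full quantile normalization, duplicateCorrelation, no filter, the set of arrays or rank product (0 to 3 with a rat left out). The 1 in C10 against I became 0 without dye, in the log-ratio model, with the set of arrays or the covariates (0 to 2), and rank product passed 1 in CF against REF and 1 in CF against I. Over all genes, the 297 of C10 against REF became 191 with duplicateCorrelation, 69 without dye, 0 in the log-ratio model, 176 with the set of arrays, 161 with the covariates and 45 at 2-fold, and ranged from 34 without REF rat 2 to 898 without REF rat 3. The causes were not tested. Labels give no replicate number shared between diets. The nearness of *Nox1* to background limits its size.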
